A study of Homo sapiens with 27 samples.

Results

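The clustered histone genes are the copies that lie in groups on human chromosomes 1, 6 and 12 and supply histone protein when a cell copies its DNA. They were chosen by name: every non-control probe of the 27 arrays whose gene name began with HIST1H, HIST2H, HIST3H or HIST4H was taken. This gave 87 of 41000 probes, which carry 66 histone names. Of these, 6 probes are for the linker histone H1, 23 for H2A, 24 for H2B, 19 for H3 and 15 for H4. By annotation 66 probes belong to genes on chromosome 6, 18 to genes on chromosome 1 and 2 to genes on chromosome 12. The remaining probe, A_24_P524452, is named HIST1H2BN in some files and HIST3H2BB in others.

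H2A, H2B, H3 and H4 form the protein core around which DNA is wound, and H1 binds the linker DNA where it enters and leaves that core. Most clustered histone messages are made in S phase, end in a stem-loop and carry no poly(A) tail, while some copies also give polyadenylated messages in cells that have stopped dividing. How the labelling reaction was primed is not given in the sources used here. Copies within a class are close in sequence, and whether a probe also bound the message of another copy was not tested. For 6 of the 87 probes the array's own annotation lists several genes.

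All cells were HepG2, a human hepatocellular carcinoma line that keeps many hepatocyte functions, and were exposed for 48 h. The compounds were benzo[k]fluoranthene (BF), benzo[a]pyrene (BaP), chrysene (CHR), indeno[1,2,3-c,d]pyrene (IND), benzo[a]anthracene (BA), phenanthrene (PH), dibenzo[a,h]anthracene (DBA), 3-methylcholanthrene (3MC) and naphthalene (NP), and control cells had the solvent DMSO. These are polycyclic aromatic hydrocarbons, flat molecules of fused carbon rings formed in incomplete burning. Each compound had 3 two-colour arrays, on which Cy5 marked RNA of exposed cells and Cy3 that of the DMSO control. No array had the dyes swapped, and a bias of a probe towards either dye remains in its ratio. Doses are not given, and compounds are compared as applied. Nothing in the labels says that the arrays of a compound came from separate cultures, so p-values measure the spread between arrays, which may be technical.

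IND was hybridised on a platform of its own and fitted alone, and 24 arrays of another platform held the remaining 8 compounds. Arrays of DBA, 3MC and NP came in files of a different layout and were dimmer, with a median Cy5 intensity of 70 to 164 units against 341 to 1535 elsewhere. In Cy5, 66 to 86 histone probes per array stood above background. For every compound but BA, the histone ratios of any pair of its arrays had a correlation of at least 0.902. Array 1 of BA stood apart, with a lowest correlation of 0.128 over all probes and 0.281 over the histone probes, so the counts, class counts and named members with BA are also given without it. The 8 compounds of the shared platform were fitted together with 1 spread per probe, so array 1 of BA also entered that spread. The p-values and intervals of the other compounds in that fit are given with it included. All 9 hepatocyte markers looked at were above background in both channels on all arrays of every compound.

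Promoters are shown for 7 members on which the results turn, with at least 1 from each class. Each run goes from 250 bases before to 50 bases after the gene start, 5′ to 3′ on the gene's strand, and comes from RefSeq on GRCh38.p14. The runs are HIST1H1C at chr6:26056421-26056720 on the minus strand, HIST2H2AA at chr1:149842701-149843000 on the minus strand, HIST1H2BC at chr6:26123877-26124176 on the minus strand, HIST1H2BD at chr6:26157871-26158170 on the plus strand, HIST1H3H at chr6:27809801-27810100 on the plus strand, HIST1H4B at chr6:26027234-26027533 on the minus strand and HIST1H4H at chr6:26285485-26285784 on the minus strand. Capitals mark any match, on either strand, to 4 motifs: the octamer ATTTGCAT, the box CCAAT, the box TATAAA and the element AAACACA.
HIST1H1C: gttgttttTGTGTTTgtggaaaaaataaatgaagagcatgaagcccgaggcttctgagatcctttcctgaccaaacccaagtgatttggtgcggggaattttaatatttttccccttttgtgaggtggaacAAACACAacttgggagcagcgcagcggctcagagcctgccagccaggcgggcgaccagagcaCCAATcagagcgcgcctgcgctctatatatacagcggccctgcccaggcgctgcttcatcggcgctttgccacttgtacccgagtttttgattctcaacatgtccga
HIST2H2AA: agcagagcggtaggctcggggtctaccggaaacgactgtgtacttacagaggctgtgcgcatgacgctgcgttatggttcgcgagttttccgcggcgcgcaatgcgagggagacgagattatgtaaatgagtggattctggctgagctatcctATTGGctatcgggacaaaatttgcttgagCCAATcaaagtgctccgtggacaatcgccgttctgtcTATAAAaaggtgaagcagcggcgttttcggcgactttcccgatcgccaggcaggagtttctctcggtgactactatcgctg
HIST1H2BC: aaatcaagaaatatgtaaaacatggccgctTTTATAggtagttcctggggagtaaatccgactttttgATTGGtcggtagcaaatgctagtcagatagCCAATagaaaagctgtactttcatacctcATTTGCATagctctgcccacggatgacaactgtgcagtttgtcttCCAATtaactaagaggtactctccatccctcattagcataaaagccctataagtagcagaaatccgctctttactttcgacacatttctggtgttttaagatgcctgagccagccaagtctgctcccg
HIST1H2BD: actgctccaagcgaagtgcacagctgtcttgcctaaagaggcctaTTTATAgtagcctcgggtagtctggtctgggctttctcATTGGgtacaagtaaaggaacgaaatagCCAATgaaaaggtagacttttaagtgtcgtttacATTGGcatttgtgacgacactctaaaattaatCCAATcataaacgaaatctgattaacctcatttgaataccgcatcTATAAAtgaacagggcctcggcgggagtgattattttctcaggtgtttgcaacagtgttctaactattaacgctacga
HIST1H3H: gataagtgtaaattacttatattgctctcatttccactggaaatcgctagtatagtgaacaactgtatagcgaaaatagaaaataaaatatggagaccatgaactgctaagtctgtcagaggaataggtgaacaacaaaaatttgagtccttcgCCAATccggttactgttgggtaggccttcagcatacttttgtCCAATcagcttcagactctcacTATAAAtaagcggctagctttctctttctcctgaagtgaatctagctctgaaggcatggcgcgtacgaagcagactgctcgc
HIST1H4B: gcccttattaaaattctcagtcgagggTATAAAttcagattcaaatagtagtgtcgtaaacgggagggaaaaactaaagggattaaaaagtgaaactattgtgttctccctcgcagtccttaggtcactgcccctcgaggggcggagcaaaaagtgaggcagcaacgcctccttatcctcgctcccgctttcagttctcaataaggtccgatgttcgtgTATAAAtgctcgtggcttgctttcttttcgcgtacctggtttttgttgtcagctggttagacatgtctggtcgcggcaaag
HIST1H4H: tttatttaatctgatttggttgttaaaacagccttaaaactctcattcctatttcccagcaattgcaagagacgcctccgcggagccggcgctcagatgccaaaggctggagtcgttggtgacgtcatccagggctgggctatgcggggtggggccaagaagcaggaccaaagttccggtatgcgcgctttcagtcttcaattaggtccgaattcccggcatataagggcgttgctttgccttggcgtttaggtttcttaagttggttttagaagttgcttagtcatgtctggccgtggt

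A promoter was found for 61 of the 66 current gene symbols, and the motifs differed by class. The octamer, a binding sequence of POU-domain factors long known from H2B genes, was in 11 of 14 H2A and 13 of 17 H2B promoters, in 1 of 12 H3 promoters and in 0 of 6 H1 and 0 of 12 H4 promoters, against 1.8% of 27305 RefSeq promoters. AAACACA, an element described in H1 promoters, was in 6 of 6 H1, 1 of 14 H2A, 0 of 17 H2B, 2 of 12 H3 and 0 of 12 H4 promoters, against 5.76% of all. CCAAT was in every H1, H2A, H2B and H3 promoter found and in 3 of 12 H4 promoters, against 35.7% of all. TATAAA was in 3 of 6 H1, 10 of 14 H2A, 12 of 17 H2B, 9 of 12 H3 and 7 of 12 H4 promoters, against 12% of all. A match describes letters and not a site in use, and neighbouring H2A and H2B genes can share the same stretch.

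With loess normalisation, histone probes that changed were more often higher than lower than DMSO with each of the 9 compounds. The classes moved differently. A probe passed at a Benjamini-Hochberg adjusted p under 0.05 in limma over all probes tested, together with a change of at least 1.5-fold. With BF, 43 of 87 rose and 6 fell, where 13.7% of all probes rose and 19.5% fell (33.2% in either direction). Of the 49 BF probes that passed, 33 were above background in both channels on all 3 arrays. HIST1H2AM probe A_32_P221799 and HIST1H4I passed with BF although they were above background in neither channel on any BF array, so no fold is given for them. With BaP, 41 rose and 3 fell, where 11.1% of all rose and 10.2% fell (21.3% in either direction). With IND, 72 histone probes passed the filter on dim signals, of which 30 rose and 2 fell, where 8.89% of all rose and 12.3% fell (21.2% in either direction). Of these 32, 25 were above background in both channels on all 3 IND arrays, as were 16 of the 20 that passed with CHR. The shares of histone probes that rose were 49.4% with BF, 47.1% with BaP and 41.7% with IND, all above the share over all probes. The levels are of bulk RNA, in which fewer cells of a type and less RNA per cell cannot be told apart.

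With DBA, 34 rose and 2 fell, where 2.15% of all probes rose and 5.48% fell (7.64% in either direction). With 3MC, 31 rose and 2 fell, against 2.46% and 7.28% of all (9.74% in either direction). Few probes rose on these arrays, while 39.1% of the histone probes rose with DBA and 35.6% with 3MC. With NP, 17 rose and 4 fell, against 4.74% and 11.7% of all (16.5% in either direction). The NP split depended on the normalisation: with median centring in place of loess, 5 rose and 7 fell. These 12 of 87 stood beside 7409 of 40973 probes over all that passed in either direction. Under that scaling histone probes were thus not more often higher with NP.

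With PH, 18 rose and 4 fell, against 8.15% and 7.73% of all probes (15.9% in either direction). With CHR, 15 rose and 5 fell, against 9.33% and 11.6% of all (20.9% in either direction). Among the 5, HIST2H2AC probe A_23_P301247 had a DMSO signal above background on no CHR array, so no fold is given for it. With BA, 11 rose and 4 fell, against 1.69% and 2.58% of all (4.27% in either direction). Without array 1 of BA, 17 rose and 5 fell, where 3.9% of all probes rose and 5.42% fell (9.32% in either direction). With median centring and all arrays the BA split was 19 higher and 3 lower.

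The median log2 ratio of the 87 histone probes was 0.52 with BF, 0.41 with BaP, 0.30 with DBA, 0.29 with 3MC, 0.19 with BA, 0.18 with CHR, 0.15 with PH and 0.12 with NP, and that of the 72 tested with IND was 0.46. The median with BA was 0.28 when its array 1 was left out. The median of all probes lay between -0.01 and 0.01 in each comparison. In total 28 probes rose with 5 or more compounds, of which 14 were for H2B, 11 for H2A and 3 for H1. Another 28 passed with no compound, and 13 of these were for H3. Only the HIST1H2BD probe A_24_P146211 rose with all 9.

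**Figure D1:**
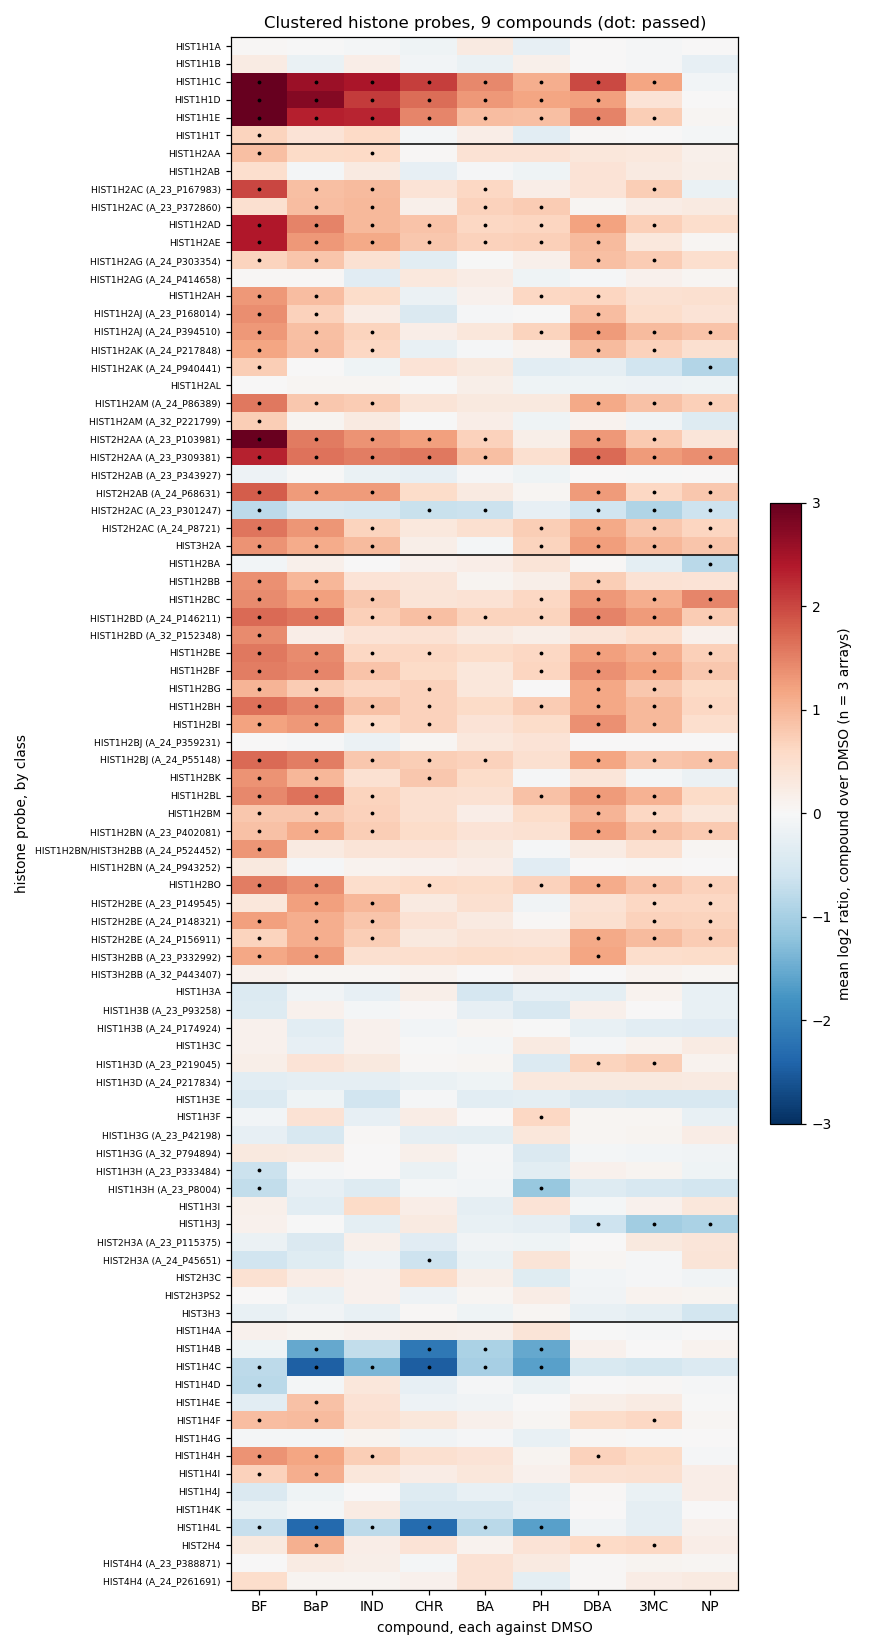
Mean log2 ratio of compound over DMSO for each of the 87 histone probes (rows, by class) and 9 compounds (columns), n = 3 arrays each. The red cells lie mostly in H1, H2A and H2B, and the deepest blue rows are HIST1H4B, HIST1H4C and HIST1H4L.

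**Figure D2:**
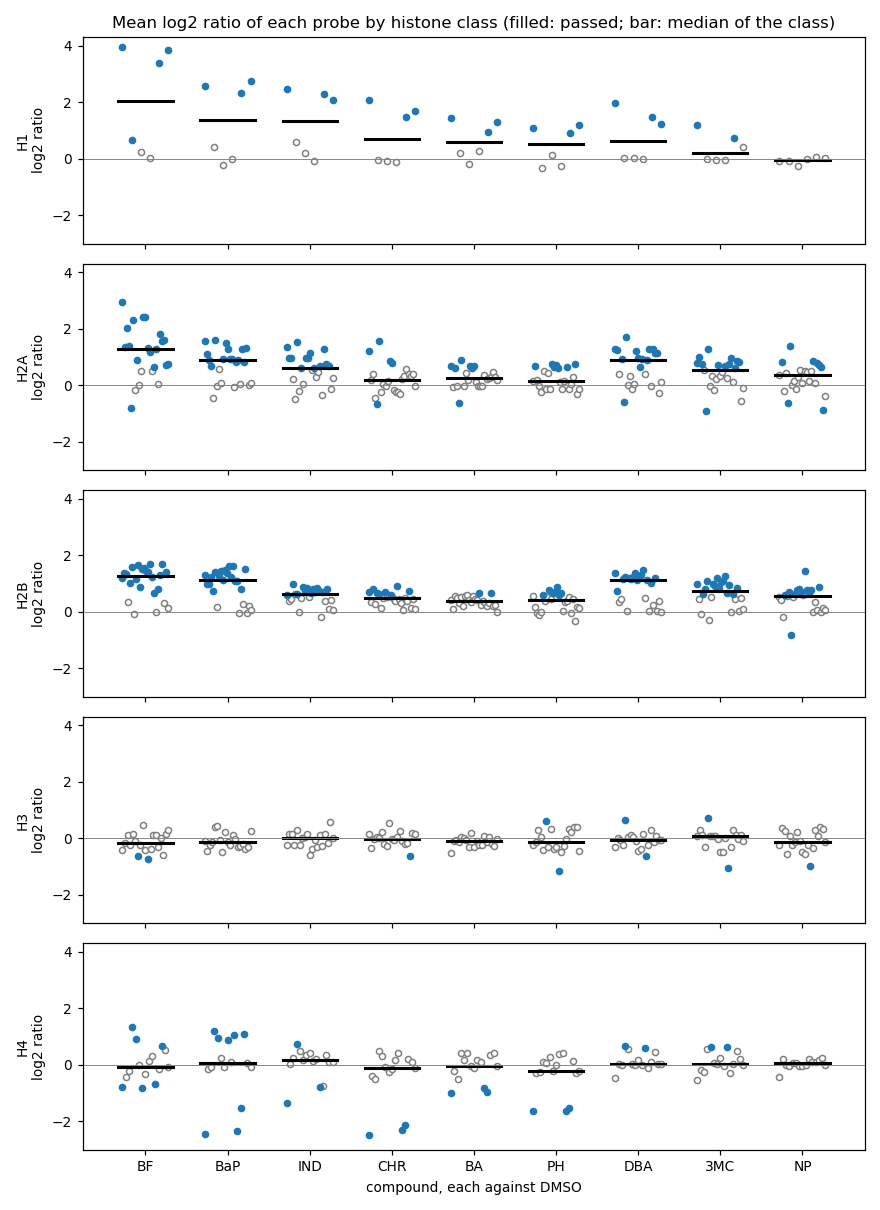
Mean log2 ratio of compound over DMSO for every histone probe, by class and compound, with the median of each class. The H2A and H2B probes lie mostly above 0 with BF, BaP and DBA, and the H3 probes lie near 0 with all compounds.

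Of the 6 H1 probes, those for HIST1H1C, HIST1H1D and HIST1H1E, which encode somatic linker histones, carried the largest increases of the 87 with BF. HIST1H1C gave log2 ratios of 3.87, 4.0 and 3.99 on the BF arrays, a mean of 3.96 ± 0.07 (SD, n = 3) or 15.5-fold, with a limma adjusted p of 1.55e-15. On the BaP arrays it gave 2.57, 2.54 and 2.61, and on the IND arrays 2.54, 2.49 and 2.35. CHR arrays gave 1.87, 2.18 and 2.15. The 3 arrays lay close together for each of these 4 compounds, and the BF arrays overlapped those of no other compound.

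HIST1H1C gave 2.14, 1.95 and 1.82 with DBA, 1.14, 1.20 and 1.21 with 3MC, and 1.05, 1.16 and 1.06 with PH. With NP it gave -0.15, -0.04 and -0.09 and did not pass, at a limma adjusted p of 0.682. With BA it gave 0.50, 1.97 and 1.89, array 1 being the low one. The BA mean was 1.45 ± 0.83 (SD, n = 3), or 1.93 without array 1, and HIST1H1C passed either way.

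HIST1H1D and HIST1H1E were also highest with BF. HIST1H1D reached 3.85 ± 0.15 with BF, 2.75 ± 0.24 with BaP and 2.09 ± 0.19 with IND (SD, n = 3 each). HIST1H1E reached 3.39 ± 0.06 with BF, 2.33 ± 0.18 with BaP and 2.29 ± 0.05 with IND. Both also rose with CHR, PH, BA and DBA, and neither passed with NP, at 0.01 ± 0.06 for HIST1H1D and 0.07 ± 0.07 for HIST1H1E. With 3MC HIST1H1E rose by 0.74 ± 0.06, while HIST1H1D, at 0.41 ± 0.13, did not pass. On the BA arrays HIST1H1E gave -0.36, 1.55 and 1.61, an SD of 1.12, and passed by the pooled spread (limma adjusted p 0.00133). Without array 1 of BA the BA values were 1.84 for HIST1H1D and 1.58 for HIST1H1E.

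The other H1 members were dim and their ratios moved little. HIST1H1A and HIST1H1B, somatic linker histones best known from dividing cells, passed with no compound. Their mean log2 intensities were 6.6 and 7.01, against 9.8 to 11.4 for HIST1H1C, HIST1H1D and HIST1H1E. In Cy5 HIST1H1A was above background on no DBA, 3MC, NP or IND array, and it was not tested with IND. HIST1H1B was above background in Cy5 on no 3MC or NP array. Stable expression thus cannot be read from these ratios. Their means lay between -0.24 and 0.26 for HIST1H1A and between -0.25 and 0.25 for HIST1H1B. HIST1H1T, the testis linker histone, rose with BF, by 0.67 ± 0.19, and passed with no other compound. Its signal was above background in neither channel on any DBA or IND array.

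**Figure D3:**
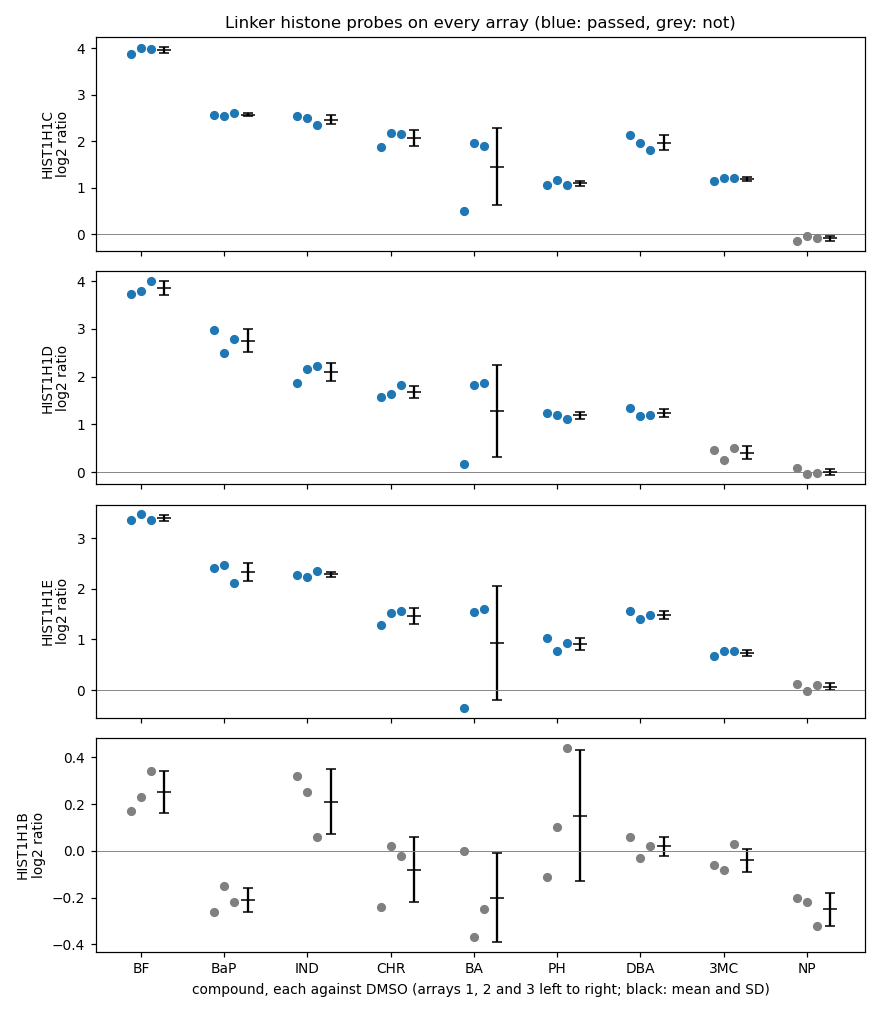
Log2 ratio of compound over DMSO on every array for 4 linker histone probes, with the mean and SD of the 3 arrays of each compound. HIST1H1C, HIST1H1D and HIST1H1E are highest with BF and near 0 with NP, array 1 of BA lies below its other arrays, and HIST1H1B stays near 0.

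Among the 23 H2A probes, 17 rose with BF, 15 with BaP, 13 with DBA, 11 with 3MC, 7 with PH, 6 with BA, 6 with NP and 4 with CHR, and 13 of 20 tested rose with IND. Without array 1 of BA, 7 rose. With median centring in place of loess, 3 H2A probes rose with NP. No compound lowered more than 2 H2A probes. The class median was 1.29 with BF and 0.90 with both BaP and DBA.

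HIST2H2AA, an H2A gene of the chromosome 1 cluster, led the class with BF. Its probe A_23_P103981 gave 2.95, 2.94 and 3.00 with BF, 1.55, 1.42 and 1.67 with BaP, and 1.36, 1.27 and 1.39 with IND. The same probe gave 0.38, 0.35 and 0.35 with NP and 0.09, 0.27 and 0.15 with PH, and passed with neither. The second HIST2H2AA probe, A_23_P309381, gave 2.27, 2.33 and 2.34 with BF but also 1.38, 1.43 and 1.36 with NP, where it passed with a limma adjusted p of 2.54e-08. The probes thus ranked NP differently. With BA the first probe gave -0.01, 1.02 and 1.04, so array 1 alone was near 0.

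HIST1H2AD and HIST1H2AE, H2A copies of the chromosome 6 cluster, came next with BF, at 2.41 ± 0.05 and 2.41 ± 0.07 (SD, n = 3 each). With BaP HIST1H2AD reached 1.49 ± 0.06 and HIST1H2AE 1.29 ± 0.08. With IND the DMSO signal of HIST1H2AD was above background by 2 background SDs on no array, although its log2 level lay 1.76 above the array median. The gene was 1.96-fold higher (limma adjusted p 5.37e-06), and its lower bound was the same. Such a bound sets the mean of the brighter channel against the higher of the probe's own weaker signal and the lowest signal well above background.

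Probes of a gene did not always move together. HIST2H2AC had probes that passed in opposite directions with 4 compounds: A_24_P8721 rose by 1.61 ± 0.14 with BF, 1.14 ± 0.08 with DBA, 0.81 ± 0.06 with 3MC and 0.65 ± 0.02 with NP. Its other probe, A_23_P301247, gave -0.79 ± 0.05, -0.60 ± 0.10, -0.90 ± 0.08 and -0.61 ± 0.06 in the same order (SD, n = 3 each). That falling probe was the dimmer, with a mean log2 intensity on the shared platform of 7.74 against 11. Dim second probes of HIST1H2AG, HIST2H2AB, HIST1H2BJ and HIST3H2BB, at 7.11, 6.56, 7.38 and 6.67, rose with no compound. For HIST1H3D the probe that rose was the dimmer, at 8.5 against 12.1. The part of signal strength was not tested. HIST1H2AC gave 2.01 ± 0.09 with BF on A_23_P167983 and 0.49 ± 0.02 on A_23_P372860, while both its probes rose with BaP, by 0.90 ± 0.06 and 0.92 ± 0.08. Over the 19 histone genes with several probes and 9 compounds, or 171 pairs of gene and compound, all probes rose in 20, some but not all rose with none lower in 59, probes passed in opposite directions in 4, probes passed only as lower in 6 and none passed in 82. HIST1H2AK probe A_24_P940441 was the single probe to pass in both directions across compounds, at 0.73 with BF and -0.89 ± 0.11 with NP.

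Among the 24 H2B probes, 19 rose with BF, 18 with BaP, 15 with DBA, 15 with 3MC, 11 with NP, 8 with CHR, 7 with PH and 2 with BA, and 13 of 20 tested rose with IND. Without array 1 of BA, 6 rose. With median centring in place of loess and all arrays, 2 H2B probes rose with NP and 9 with BA. The class median was 1.27 with BF, 1.13 with DBA, 1.11 with BaP and 0.40 with BA, or 0.52 without array 1 of BA. With BF, 19 of 24 H2B probes thus rose, and none fell.

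HIST1H2BD, an H2B copy whose polyadenylated message is known from other work, rose with every compound on probe A_24_P146211 under loess normalisation. It gave 1.71, 1.68 and 1.71 with BF, a mean of 1.70 ± 0.02 (SD, n = 3) or 3.25-fold, with a limma adjusted p of 2.29e-17. It gave 1.45, 1.65 and 1.75 with BaP, and 0.45, 0.85 and 0.86 with IND. All arrays of all compounds were above 0, and the lowest means were 0.67 ± 0.08 with PH and 0.67 ± 0.12 with BA, or 0.73 without array 1. The other HIST1H2BD probe, A_32_P152348, passed with BF alone, at 1.42 ± 0.02.

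HIST1H2BC was the highest histone probe with NP, at 1.48, 1.47 and 1.43, or 2.75-fold (limma adjusted p 2.55e-13). It gave 1.41 ± 0.02 with BF, and 0.39 ± 0.15 with CHR, where it did not reach 1.5-fold. HIST1H2BL led H2B with BaP, at 1.63 ± 0.04, and gave 0.87 ± 0.14 with PH. HIST1H2BK, the brightest H2B probe, rose with BF by 1.34 ± 0.04, with BaP by 1.00 ± 0.14 and with CHR by 0.80 ± 0.18, and gave -0.06 ± 0.04 with 3MC, -0.03 ± 0.06 with PH and -0.17 ± 0.06 with NP. HIST1H2BA, the testis H2B, was at least 1.74-fold lower with NP (limma adjusted p 8.75e-10), its Cy5 signal being above background on no NP array.

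In the family 6 genes were listed for polyadenylated messages known from other work: HIST1H1C, HIST1H2AC, HIST1H2BC, HIST1H2BD, HIST1H2BK and HIST2H2BE, with 10 probes. Of these probes 9 rose with BaP, 8 with BF, 8 with IND, 7 with 3MC, 5 with NP, 4 with DBA, 4 with PH, 4 with BA and 3 with CHR, and 0 fell. With array 1 of BA left out, 5 rose and 0 fell with BA. Their median log2 ratio was 1.38 with BF and 1.10 with BaP, and 0.28 with PH. Of all probes, between 1.69% with BA and 13.7% with BF rose. The NP count of this list was not repeated with median centring.

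Many H2A and H2B genes stand head to head and share a promoter stretch. Among the members, 10 such pairs had starts 194 to 248 bases apart. Both partners had a probe that rose in 9 pairs with BF, 9 with BaP, 8 with DBA, 7 with 3MC, 5 with IND, 2 with NP, 2 with PH, 1 with CHR and 0 with BA, with or without array 1 of BA. Of the H2A and H2B genes with a promoter, 24 held the octamer and 7 did not. A probe rose with BF for 21 of the 24 and for 7 of the 7, and with NP for 11 of the 24 and 4 of the 7. In these counts 1 risen probe was enough for a gene with several. Of all single probes, 13.7% rose with BF, 4.74% with NP and 1.69% with BA. The share of all genes with any risen probe was not computed, and the NP counts were not repeated with median centring.

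The H3 class was nearly flat: of 19 probes, at most 1 rose and at most 2 fell with any compound, and the class median lay between -0.17 and 0.07. HIST1H3J gave -1.09, -0.99 and -1.08 with 3MC, a fold of 0.481 (limma adjusted p 3.78e-11), and also fell with NP, at -0.96 ± 0.02, and with DBA, at -0.61 ± 0.02. With the other 6 compounds its means lay between -0.30 and 0.27. HIST1H3H gave -1.03, -1.22 and -1.16 with PH on A_23_P8004 (limma adjusted p 8.15e-12). This probe also fell with BF, at -0.74 ± 0.03, as did the other HIST1H3H probe, at -0.64 ± 0.14.

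The few increases in H3 were small. HIST1H3D rose with 3MC, by 0.73 ± 0.05, and with DBA, by 0.66 ± 0.09, on A_23_P219045, while its other probe gave 0.30 ± 0.02 and 0.30 ± 0.10 and did not pass. HIST1H3F rose with PH, by 0.63 ± 0.13. HIST3H3, the brightest H3 probe, passed with no compound, with means from -0.56 to 0.05.

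H4 was divided within itself with BaP, BF and IND, where some copies fell and others rose. With CHR, PH and BA 3 H4 probes fell and 0 rose, or 4 fell and 1 rose with BA without its array 1. With DBA and 3MC 2 rose and 0 fell, and with NP 0 passed. The largest decreases were those of HIST1H4C, HIST1H4L and HIST1H4B. HIST1H4C gave -2.43, -2.44 and -2.50 with BaP, a mean of -2.45 ± 0.04 (SD, n = 3) or a fold of 0.182, with a limma adjusted p of 1.24e-10. With CHR it gave -2.71, -2.38 and -2.34, and since its DMSO signal was saturated on 3 of 3 arrays it was at least 5.58-fold lower. With PH it gave -1.52, -1.77 and -1.59, with 1 of the DMSO signals saturated. These 9 arrays all lay far below 0.

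With IND HIST1H4C gave -1.23, -1.40 and -1.45. With BA it gave 0.13, -1.55 and -1.55, so array 1 was alone in showing no decrease, and the mean was -0.99 ± 0.97, or -1.55 without it. With BF it gave -0.82, -0.79 and -0.77 and passed, although median centring turned the mean to 0.06. With 3MC, DBA and NP it gave -0.52 ± 0.04, -0.45 ± 0.04 and -0.42 ± 0.03 and did not pass, though all 9 arrays were below 0.

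HIST1H4L gave -2.34 ± 0.13 with BaP, -2.31 ± 0.02 with CHR and -1.64 ± 0.05 with PH (SD, n = 3 each). It also fell with BA, IND and BF, at -0.80 ± 0.84, -0.78 ± 0.07 and -0.68 ± 0.01, and lay between -0.28 and 0.12 with 3MC, DBA and NP. HIST1H4B fell with CHR, BaP, PH and BA, at -2.14 ± 0.05, -1.54 ± 0.28, -1.54 ± 0.19 and -0.95 ± 0.31, but gave -0.13 ± 0.06 with BF. Without array 1 of BA, HIST1H4L was at -1.28 and HIST1H4B at -1.13. With IND HIST1H4B was too dim to be tested.

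HIST1H4H, whose promoter above held none of the 4 motifs, rose with BF by 1.34 ± 0.07, with BaP by 1.19 ± 0.10, with IND by 0.74 ± 0.10 and with DBA by 0.68 ± 0.05. With BaP, HIST1H4I, HIST2H4, HIST1H4F and HIST1H4E rose as well, by 1.09 ± 0.18, 1.07 ± 0.13, 0.96 ± 0.22 and 0.88 ± 0.10. HIST1H4F also rose with BF, by 0.93 ± 0.04, where HIST1H4D fell, at -0.82 ± 0.09. In BaP-treated cells 5 of the 15 H4 probes rose and 3 fell, so copies encoding the same class of protein moved both ways.

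**Figure D4:**
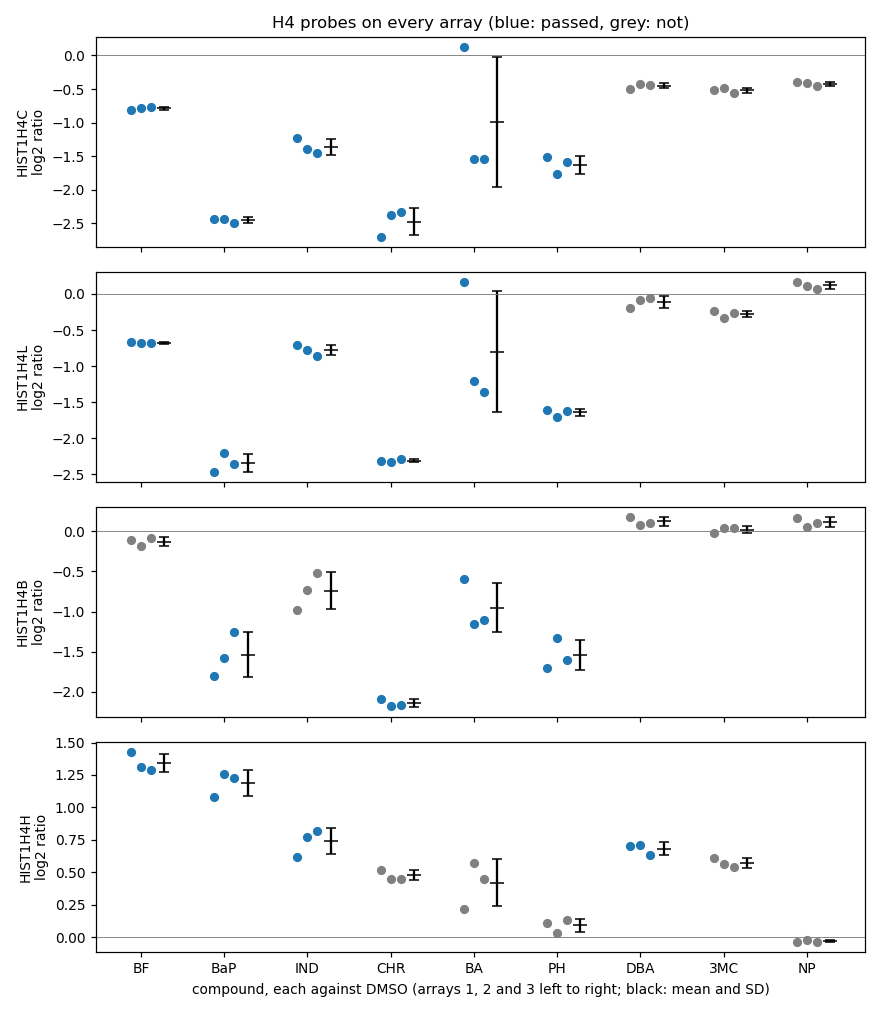
Log2 ratio of compound over DMSO on every array for HIST1H4C, HIST1H4L, HIST1H4B and HIST1H4H, with the mean and SD of the 3 arrays of each compound. HIST1H4C and HIST1H4L are lowest with BaP and CHR, HIST1H4B is near 0 with BF, and HIST1H4H is highest with BF.

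The DMSO level of some members differed between the array sets, beside the ratios. As log2 Cy3 signal minus the array median, HIST1H4C had means of 0.57 to 0.72 on the DBA, 3MC and NP arrays and of 5.41 to 6.81 on the BaP, PH, CHR, BA and BF arrays. HIST1H4L had means of -0.58 to -0.28 on the DBA, 3MC and NP arrays and of 2.93 to 3.81 on the BaP, PH, CHR, BA and BF arrays. On the DBA arrays HIST1H4L was above background in Cy3 on 2 of 3. HIST1H1C went the other way, at 2.46 to 4.05 on the DBA, 3MC and NP arrays and 0.71 to 1.23 on the others of that platform. The compounds with which HIST1H4C did not pass were thus those whose DMSO cells gave it a low signal. Array set and compound cannot be told apart here.

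**Figure D5:**
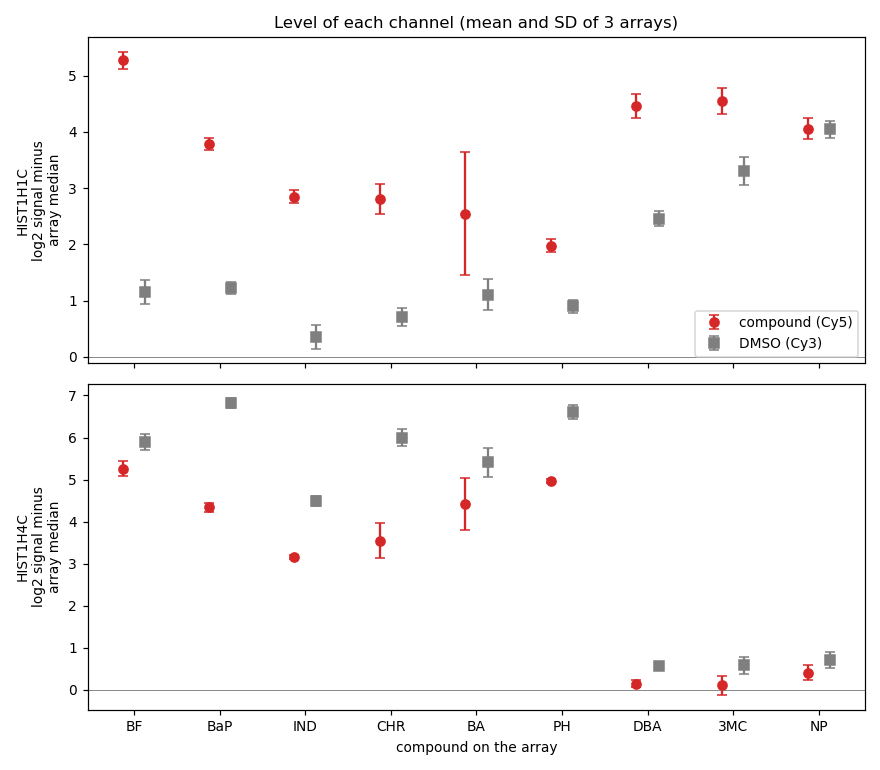
Level of HIST1H1C and HIST1H4C in the compound (Cy5) and DMSO (Cy3) channels, as log2 signal minus the array median, by compound. HIST1H4C lies near the array median in both channels on the DBA, 3MC and NP arrays and well above it on all others.

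Compounds were then compared directly in 5 pairs, each adjusted over all probes. Pairs that contain DBA share its arrays, as those with CHR do. In an F test over the 8 compounds of the shared platform, 83 of 87 histone probes differed between compounds at an adjusted p under 0.05, where 86% of all probes did. The 4 that did not pass were HIST1H4A, HIST1H4G, HIST2H2AB probe A_23_P343927 and HIST3H2BB probe A_32_P443407.

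BaP has more fused rings than PH. Of the 87 probes 39 were higher with BaP and 5 lower, where 9.68% of all probes were higher and 9.06% lower (18.7% in either direction). HIST1H1D differed by 1.57 (95% interval 1.02 to 2.12), HIST1H1C by 1.48 (1.01 to 1.95) and HIST2H2BE probe A_23_P149545 by 1.33 (1.14 to 1.52). Such intervals use the spread over all 8 compounds of the fit. For HIST1H1C the SD was 0.03 with BaP and 0.06 with PH, but 0.83 with BA. HIST1H4C was lower with BaP than with PH by -0.83 (-1.36 to -0.29, limma adjusted p 0.0113), a value that includes the PH array with a saturated DMSO signal. The probes of HIST1H3G passed in opposite directions, A_23_P42198 at -0.82 and A_32_P794894 at 0.70 (limma adjusted p 2.31e-06 for the second). Of the HIST2H3A probes, A_24_P45651 was lower with BaP, at -0.76, and A_23_P115375 did not pass, at -0.31. The 5 lower probes were all for H3 or H4, and the higher ones were 17 for H2B, 8 for H2A, 5 for H3, 5 for H4 and 4 for H1.

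BF has more fused rings than CHR. With BF 39 probes were higher than with CHR and 2 lower, where 10% of all probes were higher and 16.3% lower (26.3% in either direction). HIST1H1D differed by 2.17 (1.61 to 2.72) and HIST1H1C by 1.89 (1.42 to 2.36). HIST1H4B differed by 2.01 (1.75 to 2.28), being at -0.13 with BF and -2.14 with CHR. The lower probes were for HIST1H3H and HIST1H3A, at -0.66 and -0.59.

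DBA was set against 3MC, which carries a methyl group, and against NP, which has fewer rings. Against 3MC, 5 probes were higher with DBA and 0 lower, where 1.95% of all were higher and 0.559% lower (2.5% in either direction). These were HIST1H1D at 0.83 (0.27 to 1.38), HIST1H1C at 0.79 (0.32 to 1.26), HIST3H2BB probe A_23_P332992 at 0.68, HIST2H2AB probe A_24_P68631 at 0.67 and HIST1H2AE at 0.63. This count rested on single arrays, with 1 to 4 probes passing when any 1 array of either compound was left out. It also rested on the processing. Median centring gave 14 of 87 probes, beside 1776 of 40971 over all. Plain background subtraction gave 13 of 87, beside 2418 of 40947. The authors' deposited log2 ratios gave 10 of 60, beside 967 of 18788. Against NP, 16 were higher with DBA and 0 lower, where 7.15% of all were higher and 3.42% lower (10.6% in either direction). This count was 44 under median centring, beside 7706 of 40971 over all, and 40 under plain background subtraction, beside 7219 of 40947. HIST1H1C differed most, by 2.06 (1.59 to 2.53, limma adjusted p 2.51e-07), being at 1.97 with DBA and -0.09 with NP. HIST1H4L did not pass against NP, at -0.23 (-0.69 to 0.24).

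CHR and BA are isomers whose rings are joined differently. With CHR 3 probes were higher than with BA and 3 lower, where 7.77% of all were higher and 8.94% lower (16.7% in either direction). HIST1H4L and HIST1H4B were lower with CHR, by -1.51 and -1.18, and without array 1 of BA by -1.03 and -1.01, still passing. HIST1H4C was the third lower probe and also passed without array 1, but its DMSO signal was saturated on 3 of 3 CHR arrays, so no exact difference is given. HIST1H1C was higher with CHR by 0.61 (0.14 to 1.08), but without array 1 of BA by 0.13, with a limma adjusted p of 0.205. Without array 1, 1 probe was higher and 3 lower, where 16.1% of all passed in either direction. With median centring 0 were higher and 6 lower. Leaving out array 2 of BA gave 10 and leaving out array 3 gave 11 probes that passed, beside 7695 and 7575 of 40973 over all.

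The replication fork copies DNA. Of 23 listed fork genes, 20 fell with BaP, 19 with BF, 21 with IND, 15 with PH, 13 with CHR, 11 with BA, 11 with 3MC, 10 with DBA and 3 with NP. Over all probes, between 2.58% with BA and 19.5% with BF fell, and the 3 of 23 with NP stood beside 11.7% of all probes. At most 2 of the 23 rose with any compound. With BA 16 fell when its array 1 was left out. RRM2, a subunit of ribonucleotide reductase, fell with BaP, at -2.67 ± 0.05, and with BF, at -2.35 ± 0.08. MCM2, of the replicative helicase, fell with BaP, at -2.09 ± 0.01, and with BF, at -2.46 ± 0.06. PCNA, the sliding clamp, rose with CHR by 2.38 ± 0.10 and with BaP by 1.24 ± 0.12. The list and the histone members were measured on the same arrays.

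Of 13 histone chaperones, which carry histones to DNA, 9 fell with BF, 9 with IND, 8 with BaP, 6 with CHR, 5 with DBA, 5 with PH, 3 with 3MC, 3 with BA and 1 with NP, and at most 1 rose with any compound. With BA 6 fell when its array 1 was left out. The shares of all probes that fell ran from 2.58% with BA to 19.5% with BF, and 1 of 13 with NP stood beside 11.7%. ASF1B, an H3 and H4 chaperone, fell with BaP, at -2.51 ± 0.23, and with BF, at -2.34 ± 0.15. HJURP, the chaperone of the centromeric H3, fell with BaP, at -2.86 ± 0.12. Of 20 genes for histone message processing and transcription, 4 rose and 6 fell with BF, where 13.7% of all probes rose and 19.5% fell. With BaP 3 rose and 5 fell, against 11.1% and 10.2% of all. With NP 3 rose and 2 fell, with PH 3 and 1, with CHR 2 and 3, and with IND 2 and 7 of 19 tested. None rose with 3MC, BA or DBA, where 2, 3 and 1 fell. Without array 1 of BA, 1 rose and 5 fell with BA. Shares of all probes for these compounds are given above. SLBP, which binds the stem-loop, passed with no compound when all arrays were used, with means from -0.56 to 0.22. Without array 1 of BA it passed as lower with BA, at -0.61 (limma adjusted p 1.04e-09). E2F1, an S-phase transcription factor, fell with BF, at -2.81 ± 0.09, and NPAT, a coactivator of histone genes, fell with IND, at -1.47 ± 0.07.

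Of 11 histones listed as replication-independent, 7 fell and 0 rose with IND, where 12.3% of all probes fell and 8.89% rose. With BF 5 fell and 1 rose, against 19.5% and 13.7% of all. For the other compounds, from 2.58% with BA to 11.7% with NP of all probes fell. With DBA and with PH 4 fell and 1 rose, and with CHR and with BA 4 fell and 0 rose, or 5 with BA without its array 1. With BaP 3 fell and 2 rose, with NP 3 fell and 1 rose, and with 3MC 3 fell and 0 rose. Among them CENPA, the centromeric H3, fell with all 9 compounds, from -3.54 ± 0.29 with BaP to -1.02 ± 0.40 with BA, or -1.25 without array 1 of BA. H1-10 fell with BF, at -3.50 ± 0.09.

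Of the 9 hepatocyte markers, 8 fell with BF, 7 with IND and 6 with BaP, and none rose with these. Among all probes 19.5%, 12.3% and 10.2% fell with these compounds. Across the 9 compounds, between 1.69% (BA) and 13.7% (BF) of all probes rose. With NP 4 fell and 2 rose, with DBA and with CHR 3 fell and 2 rose, with 3MC 2 fell and 3 rose, with PH 2 fell and 1 rose, and with BA 1 fell and 0 rose, or 4 fell without array 1 of BA. Of 9 markers of other cells, 4 rose and 1 fell with BaP and with CHR, and 2 rose and 1 fell with BA, or 3 and 1 without its array 1. None fell with the other compounds, where 3 rose with BF, 2 with 3MC, 2 of 6 tested with IND, and 1 each with DBA, NP and PH. KRT19, of bile duct cells, was at 3.56 ± 0.06 with BaP. PTPRC, COL1A1 and COL1A2, of blood cells and fibroblasts, passed with no compound, but other genes of this list did. Without array 1 of BA, CD68, KRT19 and ACTA2 rose with BA, by 0.97, 0.91 and 0.75, and PECAM1 fell, at -0.81. The part of either in the histone results was not tested.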

How the data were processed

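RNA of HepG2 cells given a compound (Cy5) and of DMSO cells (Cy3) was hybridised on 27 two-colour Agilent arrays, 3 per compound. Per the file headers, the deposited scanner files hold foreground and background intensity per spot and the percent of pixels above background or saturated, not yet normalized. The deposited value table holds the authors' log2 ratios, and its normalization is not given in the sources used here. Set against the scanner ratios, 20 of its 27 columns correlated above 0.5, and the other 7, among them all 3 of IND, were not used. Intensities were corrected by normexp with an offset of 50 and normalized by loess within each array in limma 3.58.1 (R 4.3.3), control spots and spots flagged at -75 or below having weight 0. Spots of a probe were averaged. Probes above background by 2 background SDs on at least 2 of 3 arrays of any compound in either channel were tested, for 8 compounds in 1 fit and for IND alone. The threshold for passing was 1.5-fold together with an adjusted p under 0.05. In simulated data, 2-fold changes were recovered in 95 to 100% of probes. The simulated noise was normal and independent between arrays, with 1 spread per probe for all arrays of a fit. It held no outlying array such as array 1 of BA, no dye bias and no dimmer array set, so the real recovery may be lower. The number of arrays limits the precision.

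Named probes were those with the highest and lowest ratios among those that passed per compound (up to 4 each), the brightest of each class, and genes whose probes passed in opposite directions. HIST1H3D, HIST1H3F, HIST1H4D, HIST1H4E and further members outside this rule were named after their values were seen. The members and lists were chosen with earlier results of these data known. Alternatives were other background corrections, scalings, filters, a replicate block, 1 array left out at a time and the authors' log2 ratios. Fits within each file layout were added after the data had been seen. Tables were handled in Python 3.11.15 with pandas 2.3.3 and numpy 2.4.6, and figures drawn with matplotlib 3.10.9.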

Additional observations from a re-analysis of the deposited data

Results flagged for a closer look

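The direct tests between compounds gave these counts of histone probes, each beside the share of all probes. By limma's F test over 8 compounds 83 of 87 differed, or 95.4%, where 86% of all probes did. Between BaP and PH 44 differed, or 50.6%, where 18.7% of all did. Between BF and CHR 41 differed, or 47.1%, where 26.3% of all did. Between DBA and NP 16 differed, or 18.4%, where 10.6% of all did. Between DBA and 3MC 5 differed, or 5.75%, where 2.5% of all did. Between CHR and BA 6 differed, or 6.9%, below the 16.7% of all. Whether the histone probes differ as a set was not tested.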

How the results depend on the processing

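Of the values of named probes under the alternatives, 1256 kept their direction and side of the threshold, 19 passed newly, 12 no longer passed and 1 reversed, HIST1H4C with BF, at 0.06 under median centring. Without a fold limit the counts were 60 with 3MC, 55 with NP, 62 with CHR, 64 with PH and 58 with BA. Over all probes 16771, 20742, 25373, 24478 and 18242 of 40973 passed, in the same order. IND gave 65 of 72, beside 21370 of 30446. DBA minus 3MC gave 22, beside 5632 of 40971, and DBA minus NP gave 46, beside 13462 of 40971. CHR minus BA gave 30, beside 20629 of 40973. The fold limit removes small changes. Median centring gave 12 with NP, beside 7409 of 40973 over all. It gave 14 for DBA minus 3MC and 44 for DBA minus NP. Plain background subtraction gave 13 for DBA minus 3MC and 40 for DBA minus NP. The authors' log2 ratios gave 10 for DBA minus 3MC. Counts over all probes for these pairs are given above, and the cause was not tested. Leaving out 1 array at a time gave 44 to 45 with BaP, 34 to 36 with DBA, 30 to 33 with 3MC, 21 to 23 with NP, 20 to 23 with CHR, 17 to 22 with PH, 10 to 22 with BA, 48 to 50 with BF, 30 to 33 with IND, 43 to 44 for BaP minus PH, 1 to 4 for DBA minus 3MC, 15 to 18 for DBA minus NP, 40 to 42 for BF minus CHR, 4 to 11 for CHR minus BA and 82 to 84 in the F test. Same-numbered arrays of different compounds had a mean residual correlation of 0.0047 over 84 pairs, from -0.144 to 0.152, 3 of them over 0.1. Pairing was thus not seen on average, which cannot exclude a link between some arrays. A replicate block left each of 14 counts within 1.5 times, with 44 for BaP. Dim signals limit the DBA, 3MC and NP arrays.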
